A study of Mus musculus with 2 samples.

Results

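The lipocalin genes Lcn2, Lcn3, Lcn4, Lcn5, Lcn6, Lcn8, Lcn9, Lcn10 and Lcn12 were examined as 1 group of 9 genes among the 43346 mouse genes of the deposited tables. They were chosen by symbol, from the gene and the transcript tables, and each symbol matched 1 gene identifier. The tissue was labelled adipose, male, C57BL/6J and 10 weeks old, with no treatment named, and polyadenylated RNA was sequenced as 2 technical libraries of 1 biosample. All libraries belong to that single group, so no condition was compared with another, and every SD below is the technical spread between n = 2 libraries. The labels do not say which fat depot was taken. Library 2 was made in a later year than library 1, so a difference between libraries and one between dates cannot be told apart.

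Lipocalins are small secreted proteins with a barrel-shaped fold that carries lipids, steroids, retinoids and other hydrophobic molecules. In the mouse, a run of lipocalin genes on chromosome 2 is known for expression in the epididymis, through which sperm pass and mature on leaving the testis, where principal cells of the epithelium secrete the proteins into the lumen under the control of androgens and other testicular factors. Lcn5 encodes the epididymal retinoic acid-binding protein, and Lcn8 is its close neighbour. Lcn2 is known outside the epididymis as an iron-siderophore carrier of neutrophils and epithelia and as a protein secreted by fat cells. Lcn3 and Lcn4 are vomeronasal secretory proteins, known from glands of the nose.

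Depth was 19954869 expected counts in library 1 and 19256807 in library 2. TPM is a transcript level per unit of length, scaled so that each library sums to the same total. Of that total, 51.7% went to mitochondrial genes and their nuclear copies in library 1 and 15.9% in library 2, so a given TPM is a larger part of the remaining RNA in library 1. Against the label, markers of both fat and epididymis were present. All 6 adipocyte markers reached 1 TPM in both libraries, and their levels summed to 5172 and 9853 TPM in libraries 1 and 2. Most of both sums was Fabp4, at 4072 and 6105 TPM. All 10 markers of epididymal principal cells also reached 1 TPM in both, and their levels summed to 44041 and 40580 TPM. That limit was reached by 57.1% of protein-coding genes. In bulk RNA, fewer cells of a type and less RNA per cell cannot be told apart.

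The family is written in the exons. The leading transcripts of 6 members have 7 exons and those of the other 3 members have 6. In 7 of the 9 members the fifth exon, wholly coding, is 102 bases long. That length was found in 1.21% of the 2965 protein-coding transcripts of chromosome 2 with 5 or more exons. This share counts transcripts and not genes, and transcripts of the members are among them. The exceptions are Lcn8 with 90 bases and Lcn10 with 99. These exons are shown, 5′ to 3′ on the coding strand, to let the length match be set against the divergence of the letters, with the abundant Lcn5, Lcn9 and Lcn2 above the pair that was barely or not detected, Lcn3 and Lcn4, and the shorter exon of Lcn8 last. Capitals mark the 5 positions with the same base in all 7 exons of 102 bases. The sequences are from the GENCODE M21 transcripts (build GRCm38), at chr2:25660895-25660996 for Lcn5, chr2:25824669-25824770 for Lcn9, chr2:32385419-32385520 (minus strand) for Lcn2, chr2:25767509-25767610 for Lcn3, chr2:26668565-26668666 (minus strand) for Lcn4 and chr2:25655299-25655388 for Lcn8.
Lcn5: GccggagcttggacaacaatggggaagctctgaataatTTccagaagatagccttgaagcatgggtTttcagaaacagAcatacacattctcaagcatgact
Lcn9: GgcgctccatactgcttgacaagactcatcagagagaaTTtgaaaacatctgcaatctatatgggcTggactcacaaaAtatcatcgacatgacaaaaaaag
Lcn2: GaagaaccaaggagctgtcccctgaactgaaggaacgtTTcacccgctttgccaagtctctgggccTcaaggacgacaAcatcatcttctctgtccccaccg
Lcn3: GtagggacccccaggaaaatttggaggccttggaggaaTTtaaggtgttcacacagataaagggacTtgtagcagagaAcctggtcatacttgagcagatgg
Lcn4: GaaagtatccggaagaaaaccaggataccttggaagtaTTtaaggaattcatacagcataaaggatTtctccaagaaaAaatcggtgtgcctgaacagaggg
Lcn8: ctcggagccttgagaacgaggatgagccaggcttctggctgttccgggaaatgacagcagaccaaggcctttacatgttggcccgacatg
Over the 21 pairs of 102-base exons, compared position by position without gaps, identity ranged from 26.5% between Lcn9 and Lcn12 to 63.7% between Lcn3 and Lcn4, with a median of 38.2%. All 9 members had whole counts in both libraries (within 0.005), so no read was divided between them and another gene, and none overlaps another annotated gene.

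The 250 bases before the RefSeq start (build GRCm38.p6) are shown for the 3 members with the highest mean TPM and for Lcn3, which had no counts, because they differ most in level within the same run of genes. Capitals mark matches, on either strand, to TATAAA (the TATA box), to the hexamer AGAACA, or to TGTTTAC (forkhead factors), TTGCNNAA (C/EBP factors) or AGGAAG (ETS factors). The windows lie on the plus strand at chr2:25657702-25657951 for Lcn5, chr2:25652868-25653117 for Lcn8, chr2:25822903-25823152 for Lcn9 and chr2:25765283-25765532 for Lcn3.
Lcn5: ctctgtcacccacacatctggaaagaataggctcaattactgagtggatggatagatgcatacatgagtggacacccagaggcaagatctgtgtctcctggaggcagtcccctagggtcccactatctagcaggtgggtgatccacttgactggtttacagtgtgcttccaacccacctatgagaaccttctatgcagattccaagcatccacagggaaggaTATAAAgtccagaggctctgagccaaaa
Lcn8: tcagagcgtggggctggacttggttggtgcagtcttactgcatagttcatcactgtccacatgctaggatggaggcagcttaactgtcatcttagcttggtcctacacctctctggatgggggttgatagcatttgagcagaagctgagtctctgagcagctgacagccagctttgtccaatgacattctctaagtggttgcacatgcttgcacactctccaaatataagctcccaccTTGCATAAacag
Lcn9: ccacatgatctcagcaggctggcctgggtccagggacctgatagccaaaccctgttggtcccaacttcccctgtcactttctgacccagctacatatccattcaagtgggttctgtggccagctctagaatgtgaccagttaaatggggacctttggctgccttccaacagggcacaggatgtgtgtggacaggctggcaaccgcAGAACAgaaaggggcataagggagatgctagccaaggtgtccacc
Lcn3: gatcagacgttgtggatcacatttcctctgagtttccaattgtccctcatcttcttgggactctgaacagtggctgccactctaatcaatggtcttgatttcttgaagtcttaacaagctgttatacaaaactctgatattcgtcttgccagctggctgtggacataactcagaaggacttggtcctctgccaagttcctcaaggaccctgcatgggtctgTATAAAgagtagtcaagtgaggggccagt
TATAAA was found in 2 of the 9 member windows, Lcn5 with its first base 28 bases before the start and Lcn3 with its first base 29 bases before it, and in 12.4% of the 32851 windows of the same length in the table. The window of the abundant Lcn5 and that of the undetected Lcn3 therefore both held it at nearly the same distance from the RefSeq start. The GENCODE start of Lcn3 is at 25765569, downstream of the end of its window, so its distance depends on the start used. AGAACA was found in 4 member windows, those of Lcn6, Lcn9, Lcn10 and Lcn12, and in 16.1% of all windows. TTGCNNAA was found in 2, Lcn8 and Lcn2, against 9.56% of all windows, and AGGAAG in 1, Lcn2, against 29.5%. The Lcn2 window (chr2:32387740-32387989) includes part of the first GENCODE exon of its leading transcript, which runs from 32387580 to 32387797. TGTTTAC was found in 0 of 9, against 3.17% of all windows. No match overlapped another, and a match is a description of letters only.

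Lipocalin transcripts fell into 3 tiers: Lcn5, Lcn8, Lcn9 and Lcn2 at 769 TPM or more in both libraries, Lcn10, Lcn6 and Lcn12 below them, and Lcn4 and Lcn3 at or near 0. Of the 9 members, 7 reached 1 TPM in both libraries and 6 reached 100 TPM in both, where 57.1% and 2.75% of 21474 protein-coding genes reached those limits. Together the members held 0.798% of all TPM in library 1 and 2.06% in library 2, a mean of 1.43 ± 0.893% (SD, n = 2). Of the TPM outside mitochondrial genes and their copies, they held 1.65% and 2.45%. In expected counts they held 0.397% and 0.813%.

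**Figure D1:**
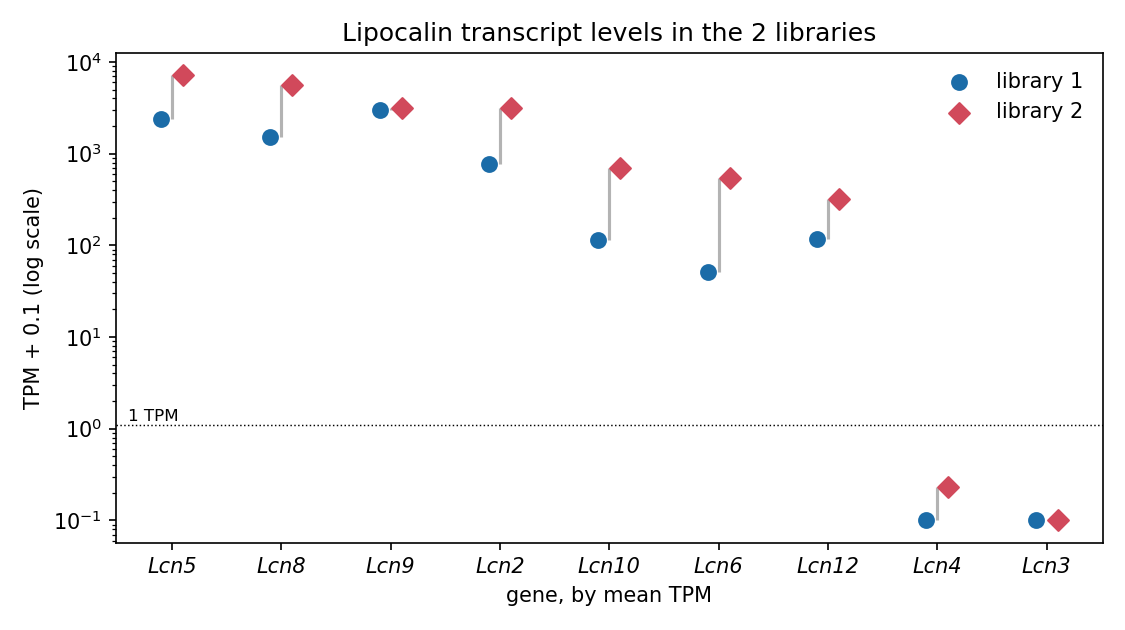
TPM + 0.1 on a log axis for the 9 lipocalin genes, ordered by mean TPM; circles are library 1, diamonds library 2, and a line joins the pair of values of a gene. Lcn9 had nearly equal values of 3022 and 3115 TPM, Lcn6 the widest gap, and Lcn4 and Lcn3 lay under the dotted line at 1 TPM.

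Lcn5, the retinoic acid carrier (ENSMUSG00000026937.8, chromosome 2, 25657952 to 25661977, plus strand, mm10), was the most abundant by the mean, with 2402 TPM in library 1 against 7167 TPM in library 2 (4784 ± 3370 TPM). These values rested on 20785 and 48866 counts. Library 2 was the higher, and Lcn5 moved from rank 30 to rank 7 among protein-coding genes.

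Lcn8 (ENSMUSG00000036449.6, chromosome 2, 25653120 to 25656217, plus strand), whose annotated end lies 1734 bases before Lcn5, had 1508 TPM in library 1 against 5649 TPM in library 2 (3579 ± 2928 TPM). It stood at ranks 44 and 12. Within a library, Lcn5 exceeded Lcn8 in both, by 1.59 times in library 1 and 1.27 times in library 2, although the ranges of the 2 genes over the libraries overlapped.

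Lcn9 (ENSMUSG00000023210.2, chromosome 2, 25823153 to 25825537, plus strand), a further lipocalin known from the epididymis, had 3022 TPM in library 1 against 3115 TPM in library 2 (3069 ± 66.3 TPM), from 33687 and 27308 counts. The libraries differed in its TPM by 1.03 times, the closest pair among the 7 abundant members on this scale. With mitochondrial genes and their copies left out, its TPM was 6256 in library 1 and 3703 in library 2, 1.69 times higher in library 1, its mean rose from 3069 to 4980, and Lcn12 became the closest pair, at 1.58 times. It was the highest lipocalin of library 1 and the fourth of library 2, so the order of the family at the top depended on the library: Lcn5 over Lcn9 was 0.795 in library 1 and 2.30 in library 2, and Lcn8 over Lcn9 was 0.499 and 1.81.

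Lcn2, the siderophore carrier (ENSMUSG00000026822.10, chromosome 2, 32384633 to 32388252, minus strand), had 769 TPM in library 1 against 3122 TPM in library 2 (1945 ± 1664 TPM). It made up 9.63% of the members' summed TPM in library 1 and 15.1% in library 2. Lcn9 over Lcn2 was 3.93 in library 1 and 0.998 in library 2, where both were close to equal.

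The middle tier was less abundant in both libraries. Lcn10 (ENSMUSG00000047356.2, 25682726 to 25686081), an epididymal lipocalin, was at 114 and 693 TPM in libraries 1 and 2 (403 ± 409.7 TPM). Lcn6 (ENSMUSG00000045684.6, 25676786 to 25681608), whose human counterpart is known to bind sperm, was at 50.6 and 548 TPM (299 ± 351 TPM). Lcn12 (ENSMUSG00000026943.8, 25490845 to 25493911, minus strand), a retinoid carrier in the rat, was at 117 and 321 TPM (219 ± 144 TPM). In library 1 Lcn12 and Lcn10 were nearly equal and Lcn6 was lowest, while in library 2 the order was Lcn10, Lcn6, Lcn12. The ranges of these 3 genes overlapped one another. The lowest value of Lcn2, 769 TPM, was above the highest of Lcn10, 693 TPM, so the top and the middle tier did not overlap.

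The nasal lipocalins were not detected above the floor of 3 counts. Lcn3 (ENSMUSG00000026936.3, 25765569 to 25768099, plus strand) had 0 counts in both libraries, which allows up to 0.353 TPM in library 1 and 0.448 TPM in library 2. Lcn4 (ENSMUSG00000026919.1, 26667674 to 26671282, minus strand) had 0 counts in library 1, which allows up to 0.299 TPM, and 1 count, or 0.13 TPM, in library 2. Of 6 markers listed for nasal gland and vomeronasal organ, 2 reached 1 TPM in both libraries, and all 6 summed to 3.04 and 11.6 TPM. The highest was Omp, a marker of olfactory neurons, at 1.05 and 8.92 TPM, and Trpc2, a channel of vomeronasal neurons that shares reads and is uncertain, was at 0 and 0.89 TPM. The odorant-binding gene Obp1a and the nasal gland gene Bpifb9a had 0 counts in both.

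The levels were set against position on the chromosome. Of the 9 members, 7 lie within 335 kb of chromosome 2 (25490845 to 25825537), with 17 other annotated protein-coding genes among them and 6 of the 7 on the plus strand. Lcn4 lies outside that run, and Lcn2 several megabases away. Abundance did not follow proximity evenly: Lcn8, Lcn5, Lcn6 and Lcn10 are consecutive genes and all had at least 50.6 TPM, with 1117 bases between Lcn6 and Lcn10. The genes beyond Lcn10 were lower than Lcn10, down to 0 counts at Lcn3, until Lcn9.

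Between Lcn10 and Lcn9 lie 7 protein-coding genes, Lcn3 among them, and most of them were low. The odorant-binding genes Obp2a and Obp2b, also lipocalins, were at 10.6 and 24.0 TPM and at 1.07 and 0.69 TPM in libraries 1 and 2, and since they share reads both values are uncertain. Bmyc, a gene related to Myc, was at 32.1 and 197 TPM. Lcn3 and Gm13539 had 0 counts in both libraries, Lcn11 had 0 and 1, and Glt6d1 was at 1.25 and 1.22 TPM. Of the 17 other genes of the run, 0 reached 100 TPM in both libraries, where 2.75% of all protein-coding genes did, so this count is near that share. Under 1 TPM in both were 3, and the share of all genes there was not counted. Medians over the 17 were 2.42 and 13.1 TPM, against 2.09 and 6.01 TPM over all protein-coding genes. On the Lcn12 side the highest by the mean of both libraries were Edf1, at 6.34 and 209 TPM, and Rabl6, at 22.5 and 58.5 TPM. Edf1 and Bmyc have 58.4% and 58.0% GC, and over all genes the ratio of library 2 to library 1 rose with GC content, as given below. The flanking genes were Ptgds, at 64.0 and 997 TPM, and Sohlh1, a germ cell gene at 0 and 0.27 TPM.

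**Figure D2:**
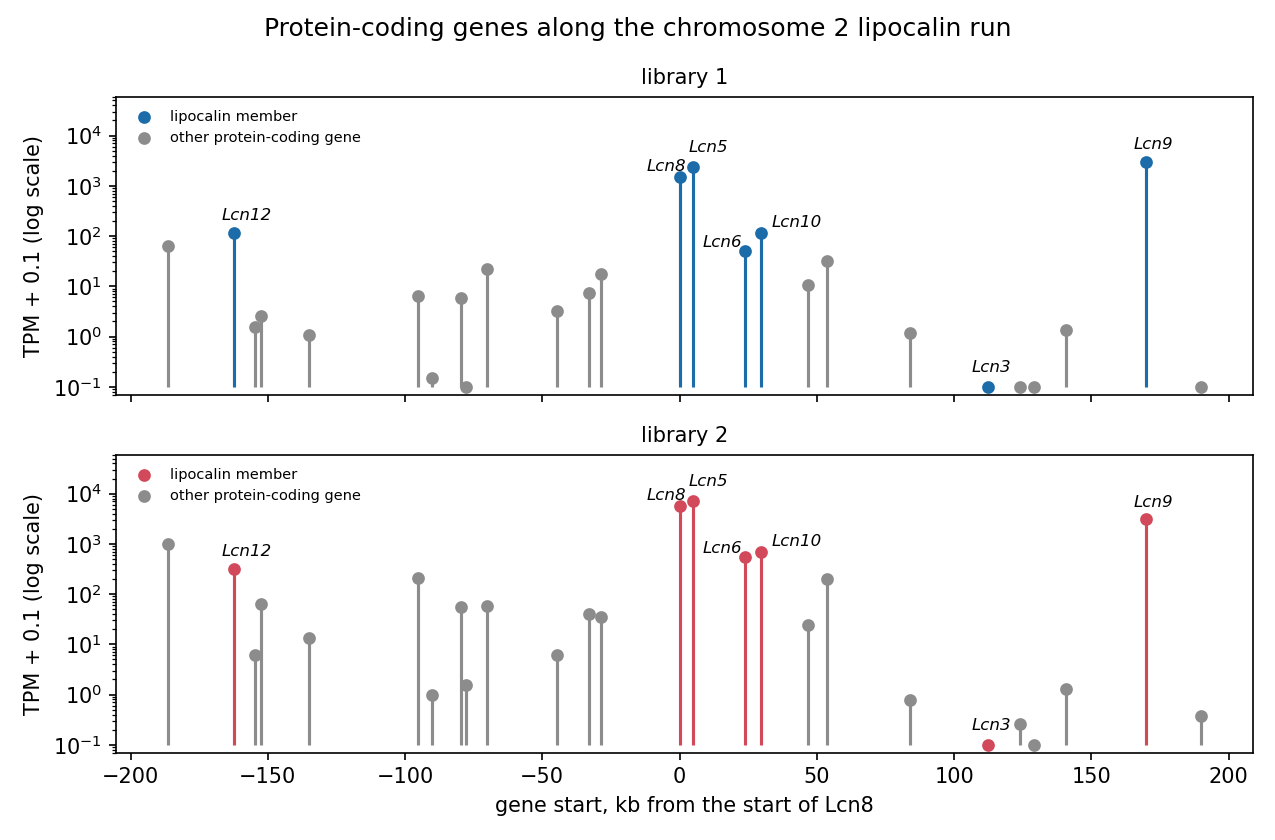
TPM + 0.1 on a log axis for each protein-coding gene of the run and 1 flanking gene on each side, by distance of the gene start from the start of Lcn8 in kb; the upper panel is library 1, the lower library 2, coloured points are the lipocalin members and grey points other genes. Lcn8, Lcn5 and Lcn9 stood above all other genes of the region in both libraries, while Lcn3 lay at 0.

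The libraries differed in the scaled ratio of most members, and this compares 2 libraries and not conditions. With TMM scaling, which sets the median gene near equality, and an exact binomial test with Benjamini-Hochberg adjustment over all genes, a call needed both an adjusted p under 0.05 and a 2-fold difference. The 2 members with under 3 counts were not tested. Of the 7 tested, 4 were called higher in library 2 (Lcn6, Lcn10, Lcn2 and Lcn8) and 0 lower, against 30.1% of 18261 genes called higher and 18.4% lower. Of the 7 log2 ratios, 6 were above 0. The median log2 ratio was 1.17 over the 7 members and 0.02 over all genes tested.

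Lcn6 had the largest ratio, with 461 counts in library 1 and 3792 in library 2, a log2 ratio of 2.65 (95% exact interval 2.51 to 2.80). Its near neighbour Lcn10 had 1787 and 8552 counts and a log2 ratio of 1.87 (1.80 to 1.95). Lcn2 had a log2 ratio of 1.29 (1.26 to 1.32) and Lcn8 one of 1.17 (1.14 to 1.2). Among all tested members only the intervals of Lcn5 and Lcn12 overlapped, and the intervals cover counting error alone.

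The other 3 tested members were not called. Lcn5 had a log2 ratio of 0.85 (0.82 to 0.87) and Lcn12, from 978 and 2226 counts, one of 0.80 (0.69 to 0.91), both under 2-fold. Lcn9 had a log2 ratio of -0.69 (-0.71 to -0.67), the only value below 0 among the 7, although its TPM was nearly equal. With scaling to total counts, which adds 0.44 to every log2 ratio, Lcn5 and Lcn12 reached 1.28 and 1.24 and were called, and Lcn9 stood at -0.25.

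Over all genes the ratio rose with the GC content of the transcripts, from a median of -0.61 at 46% GC to 1.06 at 53%. The tested members ran from 46.8% for Lcn9 to 53.6% for Lcn2 and Lcn8, and their own ratios did not follow that order, since Lcn6 and Lcn10 were above both of the latter at lower GC. Genes within 1% GC of each member with at least 100 counts on average give the level of other genes at that content. For Lcn9 (-0.69) their median was -0.56 (25th to 75th percentile -0.83 to -0.23), for Lcn12 (0.80) it was 0.72 (0.22 to 1.27), for Lcn8 (1.17) it was 1.16 (0.54 to 1.79) and for Lcn2 (1.29) it was 1.14 (0.53 to 1.77). These 4 members lay within the middle of the genes of their GC content. The other 3 lay above it: Lcn5 (0.85) against a median of 0.20 (-0.19 to 0.66), Lcn10 (1.87) against 0.69 (0.21 to 1.22) and Lcn6 (2.65) against 0.85 (0.32 to 1.46).

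With the median ratio of 40 GC bins subtracted, 2 of the 7 members, Lcn6 at 1.81 and Lcn10 at 1.11, were called higher and 0 lower, where 9.19% and 8.60% of 18133 genes were. Lcn5 stood at 0.69, Lcn2 at 0.26, Lcn8 at 0.15, Lcn12 at 0.04 and Lcn9 at -0.14. The median over the 7 members went from 1.17 to 0.26. Of the 10 principal cell markers, 0 were called higher and 4 lower before the subtraction, with a median log2 ratio of -0.76, while the subtracted ratios of 8 of the 10 lay between -0.15 and 0.04. The part of cell makeup in the ratios of Lcn6 and Lcn10 was not tested.

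**Figure D3:**
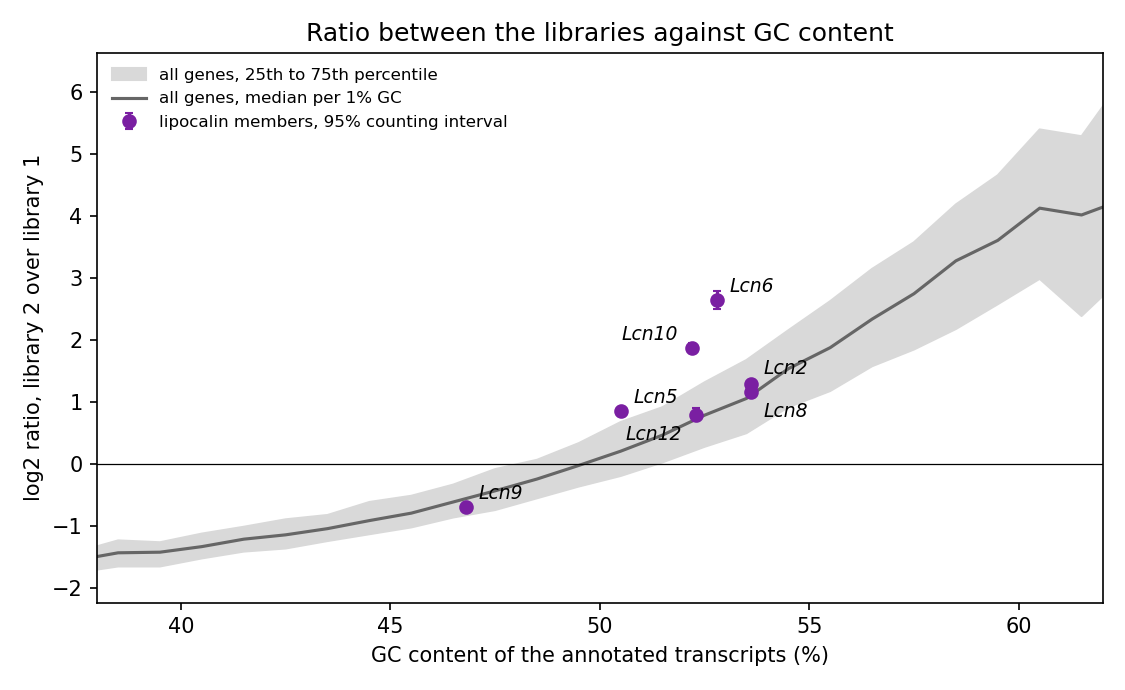
Log2 ratio of library 2 over library 1 against the GC content of the annotated transcripts in percent; points are the 7 tested lipocalin genes with 95% counting intervals, the line is the median of all genes with at least 100 counts on average per 1% GC and the grey band their 25th to 75th percentile. Lcn9, Lcn12, Lcn8 and Lcn2 lay inside the band, and Lcn5, Lcn10 and Lcn6 above it.

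Shares could differ only in members with several annotated transcripts, and of these Lcn2 and Lcn5 had 1 dominant transcript. Of the 9 genes, 5 have 1 annotated transcript (Lcn3, Lcn4, Lcn8, Lcn9 and Lcn10) and 4 have several. Shares are percentages of a gene's TPM that the authors deposited, and they rest on the assignment of reads in exons that transcripts share. Lcn2-201, the full-length coding transcript of Lcn2, held 98.7% of the gene in library 1 and 98.9% in library 2 (98.8 ± 0.15%), and none of its other 5 transcripts reached 1%. Lcn5-201 held 95.3% and 96.8% (96.0 ± 1.1%), followed by Lcn5-202, which ends in another last exon, at 2.99% and 2.26%.

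Lcn12 and Lcn6 were divided between transcripts, and in different proportions in the libraries. Lcn12-201, which begins with an exon at 25493743 to 25493911, held 59.2% of Lcn12 in library 1 and 86.2% in library 2 (72.7 ± 19.1%). Lcn12-202 begins inside the first intron, at 25493432, lacks that exon and encodes a shorter reading frame of 471 coding bases against 579. It held 40.9% and 13.9%. In counts, Lcn12-201 went from 625 to 1967 and Lcn12-202 from 353 to 259. The transcripts share 545 bases and differ in 171 bases of the first and 74 of the second, with GC contents of 59.6% and 64.9%. The share of Lcn12-201 was thus the higher in library 2. No test was made between transcripts.

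Lcn6-203, the transcript with all 7 exons, held 67.2% of Lcn6 in library 1 and 80.8% in library 2 (74.0 ± 9.61%). Lcn6-202, which begins at 25679961 downstream of the first 2 exons, held 21.5% and 6.21%. The noncoding Lcn6-204 held 6.43% and 12.0%, and Lcn6-201, with a long first exon, 4.85% and 1.02%. Counts of Lcn6-203 were 315 and 3225, so the larger TPM of Lcn6 in library 2 was carried mostly by the full-length transcript.

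**Figure D4:**
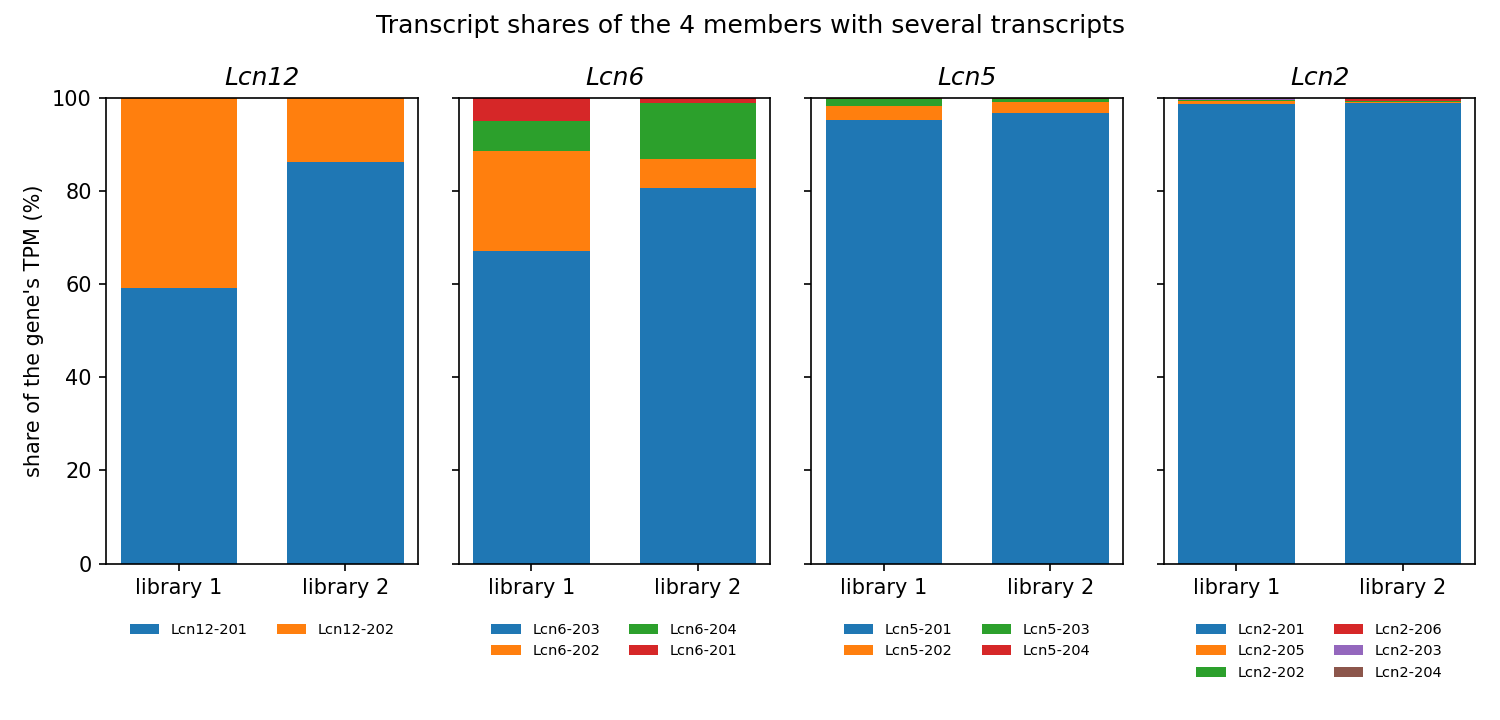
Share of the gene's TPM in percent for each annotated transcript of Lcn12, Lcn6, Lcn5 and Lcn2, with library 1 as the left and library 2 as the right bar of each panel. Lcn5-201 and Lcn2-201 filled nearly the whole bar in both libraries, while Lcn12-202 took 40.9% in library 1 and 13.9% in library 2.

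Other lipocalins of the genome were mostly low. Of 24 listed, 21 matched an identifier, and 8 of these reached 1 TPM in both libraries and 10 in either. The highest outside the epididymal run was Ptgds, the prostaglandin D synthase that is itself a lipocalin, at 64.0 and 997 TPM, with a log2 ratio of 3.55, or 1.1 with the GC trend removed, called higher both ways. Apod (apolipoprotein D) was at 105 and 194 TPM (149.5 ± 62.3 TPM), Rbp4, the plasma retinol carrier made by liver and fat, at 81.2 and 209 TPM (145 ± 90.7 TPM) with a log2 ratio that turned from 0.64 to -2.18 when the GC trend was removed, and Orm1, an acute-phase protein that shares reads with Orm2 and is uncertain, at 84.1 and 104 TPM. Rbp4 has 57.4% GC, and genes at 57% GC had a median ratio of 2.75 (25th to 75th percentile 1.85 to 3.58), so its value below 0 is relative to those genes. Orm2 was at 1.19 and 0.51 TPM, Orm3 at 1.90 and 5.96 TPM and C8g of the complement membrane attack complex at 1.42 and 6.07 TPM. The urinary protein gene Mup4 was at 1.75 and 1.82 TPM. The prostate lipocalin Pbsn had 0 counts in both libraries. Of 11 other lipocalins tested, 2 (Ptgds and C8g) were called higher in library 2 and 1 (Orm2) lower. With the GC trend removed the calls of C8g and Orm2 were lost, Orm3 was called higher, and Obp2b and Rbp4 were called lower. Summed, the 21 other lipocalins reached 354 and 1544 TPM, against 7982 and 20615 TPM for the 9 members.

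Receptors and partners of lipocalins were much less abundant than the 7 members that reached 1 TPM in both libraries. Of 8 genes, 3 reached 1 TPM in both libraries. Lmbr1l, a receptor named for lipocalin-1 in human cells, was at 3.52 and 17.9 TPM, Slc22a17, a receptor for LCN2, at 0.69 and 20.7 TPM, and Lrp2 (megalin), the endocytic receptor of many lipocalins, at 6.71 and 11.5 TPM. Of the 7 tested, 4 were called higher and 0 lower, but with the GC trend removed only 1 of the 4, the retinol-binding protein receptor Stra6, was still called (3.70 to 1.25). The log2 ratio of Slc22a17 went from 4.13 to -0.04 and that of Lmbr1l from 2.39 to 0.46.

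Transcription factors of the epididymis and of lipocalin promoters were measured as a list of 14. Of these, 10 reached 1 TPM in both libraries. Cebpa was at 22.8 and 121 TPM, Pax8 at 43.3 and 98.9 TPM and Etv5 at 31.7 and 84.0 TPM. Of the 11 tested, 8 were called higher in library 2. With the GC trend removed, 1 of these 8 was still called higher (Cebpd, from 2.16 to 1.75), 3 were not called (among them Etv5, from 1.02 to 0.48) and 4 were called lower (among them Cebpa, from 1.66 to -2.51). Pax8, not called at 0.33, was called lower at -1.22. Foxa1 and Foxa2 had 0 counts in both libraries and Foxa3 had 1 in each. Fat cells also express some of these factors, such as Cebpa.

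Lcn2 is known from neutrophils and inflamed fat as well as from epithelia, so markers of those were set beside it. Of 10 neutrophil genes, 4 reached 1 TPM in both libraries, and the 10 summed to 24.0 and 83.2 TPM. Lactoferrin (Ltf), which epithelia also make, accounted for most of this, at 18.5 and 73.3 TPM, followed by S100a8 at 2.27 and 3.21 TPM and Retnlg at 1.39 and 2.64 TPM. Ltf was called higher in library 2 at a log2 ratio of 1.24, but not with the GC trend removed, at 0.89. The granule genes Mpo and Ngp had 0 counts in both libraries, and Camp and Elane 0 in library 1. Among 9 genes induced with Lcn2 in fat, 6 reached 1 TPM in both libraries, led by haptoglobin (Hp) at 43.7 and 1561 TPM, Lbp at 51.1 and 67.3 TPM and Cebpd at 1.94 and 14.6 TPM. Of the 8 tested, 3 (Hp, Cebpd and Saa3) were called higher and 0 lower, with and without the GC trend, and Hp had a log2 ratio of 4.42, or 2.49 with the GC trend removed. The 4 macrophage markers summed to 43.5 and 230 TPM, and 3 of them were called higher in library 2. With the GC trend removed, Csf1r (from 2.13 to 0.72) and Cd68 (from 1.38 to 0.35) were not called. C1qa was then called lower (from 2.11 to -1.52). Levels of different genes do not give the number of cells, and which cells the Lcn2 transcripts came from was not tested.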

How the data were processed

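Polyadenylated RNA of adipose tissue of 1 biosample was sequenced as 2 technical libraries. Build mm10 and annotation M4 are named in text deposited with the tables. Which aligner and quantifier made them is not stated in the labels or tables. For each gene and transcript the authors deposited TPM, expected counts that need not be whole, posterior means of both, effective lengths, and transcript shares in percent. Symbols, coordinates, exons and GC content came from GENCODE M21, and 42462 of 43346 mouse identifiers matched. The 26345 other features held 0 and 2 counts and were left out.

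Expected counts were rounded, and the 18261 genes whose libraries summed to 10 or more entered an exact binomial test (two-sided) with TMM effective sizes (edgeR 4.0.16) and Benjamini-Hochberg adjustment. Log2 ratios used 0.5 added to each count. A single library on each side leaves no replicate error, so the edgeR quasi-likelihood model could not be fitted, and the test and the 95% Clopper-Pearson intervals cover counting error only (PCR copies cannot be told from separate molecules). The floor was 3 counts. GC-adjusted ratios subtracted medians of 40 bins of genes with at least 100 counts on average. The test was checked on simulated data. With a GC trend added, calls made without removing the trend included many unchanged genes, and few remained after its removal. The simulated trend was equal for all genes of a GC content. In the data it was not, with a 25th to 75th percentile of 0.5 to 1.68 at 53% GC. The check therefore cannot say how reliable the GC-adjusted calls are, and both kinds of call are to be read together. Alternatives were scaling by total counts or by DESeq2 1.42.0, posterior means, other filters and added counts, and edgeR's exact test at dispersion 0.01. The members, the 13 gene and marker lists and the tests were chosen with earlier results of these data known. Named genes were all members, other lipocalins at 1 TPM or more in either library, up to 3 of each context list by mean TPM, and genes between or beside members under 500 kb apart; others (Mpo, Ngp, Camp, Elane, Pbsn, Stra6, Saa3, Trpc2, Obp1a, Bpifb9a, Foxa1, Foxa2, Foxa3) were named after their values were seen, and 1 listed gene is not reported here. R 4.3.3, Python 3.11.15, numpy 2.4.6, scipy 1.17.1, pandas 2.3.3 and matplotlib 3.10.9 were used.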

Additional observations from a re-analysis of the deposited data

How the results depend on the processing

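The 7 members at 1 TPM or more and the 6 at 100 TPM or more in both libraries stayed within 1.5 times of these counts at the other limits tried, with posterior mean TPM and with each library alone. The largest change was from 6 to 4, at a limit of 500 TPM in place of 100. The share of TPM ranged from 0.798% to 2.06% when 1 library was left out. The count of members called higher, 4, rose to 6 with total counts and fell to 2 with the GC trend removed. At a 4-fold limit it was 1 of the 7 tested, where 3394 of 18261 genes were called higher. With total counts Lcn5 stood at 1.28 and Lcn12 at 1.24, against 0.85 and 0.80 in the main run. With DESeq2 size factors Lcn6 stood at 2.66, and with posterior means at 2.65. No log2 ratio of a tested member changed sign. Over all genes, 5500 were called higher and 3363 lower; with total counts these were 6784 and 1176, so that 85.2% of calls were higher in place of 62.1%, and with the GC trend removed 1666 and 1559. No paired analysis was possible because the labels hold a single group. Depth does not limit the 7 abundant members; for Lcn3 and Lcn4 it limits what can be said to the floor of 3 counts.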

Other observations

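Over the 2 libraries, the protein-coding genes nearest to Lcn5 in log2(TPM + 1) were Defb48, a beta-defensin gene, at a distance of 0.53, Eef1a1 at 0.57 (uncertain, since it shares reads), and Clu (clusterin), a secreted chaperone, at 0.63. Those nearest to Lcn8 were Defb48 at 0.68, Spink8, a protease inhibitor gene of the Kazal family, at 0.73, and Lcn5 itself at 0.75. Defb48 had 2372 TPM in library 1 against 4965 TPM in library 2. With only 2 libraries of 1 biosample, this distance describes likeness of level and not a shared pattern over conditions.

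Other marker lists gave the following levels. Of 4 clear cell markers of the epididymis, 2 reached 1 TPM in both libraries, with Atp6v0d2, a proton pump subunit, at 68.5 and 39.7 TPM, Foxi1, a transcription factor, at 19.2 and 30.8 TPM and Atp6v1b1, another pump subunit, at 0.87 and 5.92 TPM. Atp6v1b1 was called higher in library 2 with and without the GC trend, and Atp6v0d2 was called lower only before it was removed. Of 3 basal cell markers, 2 did. Krt5 was at 3.01 and 32.4 TPM, Trp63 at 16.4 and 14.3 TPM and Krt14 at 0.18 and 29.0 TPM. The keratins Krt5 and Krt14 were called higher in library 2, and with the GC trend removed Krt14 still was, at a log2 ratio of 4.03. Seminal vesicle and prostate markers summed to 1.96 and 1.72 TPM, and 4 of the 6 had 0 counts in both libraries. All 4 sperm and spermatid markers reached 1 TPM in both and summed to 202 and 1112 TPM.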
